A study of Mus musculus with 20 samples.

Results

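The 7 genes described here mark neurons that make, store or receive acetylcholine: Chat, Slc18a3, Slc5a7, Ache, Isl1, Lhx8 and Ngfr. They were taken by name from the 45700 genes of a brain expression table, and each name matched a single row. Values are FPKM, fragments per kilobase of transcript scaled to what each library mapped, in 20 libraries from whole brain. All mice were Taiwanese SMA line animals on a congenic FVB background, a model of severe spinal muscular atrophy. SMA mice (Smn-/-; SMN2tg/0) lack functional mouse Smn and carry 2 copies of human SMN2 on a single allele, and the controls, unaffected mice of the same litters, were Smn-/+; SMN2tg/0 and had the same transgene. Brains came from the early symptomatic stage, postnatal day 5, with 2 mice per genotype, and from the late symptomatic stage, postnatal day 7, with 3 mice per genotype. For each mouse number there was a library of total cytoplasmic RNA, pooled from all fractions of a sucrose gradient, and a library of polysomal RNA, pooled from the fractions with actively translated transcripts. The controls are carriers of a single intact Smn allele, so the comparison is with a reduced rather than a full gene dose.

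The Smn1 row does not check the genotype labels. Total RNA gave 9.32 FPKM in controls and 9.82 FPKM in SMA mice at day 5 (means, n = 2), while at day 7 the controls ranged from 13.6 to 16.7 FPKM and the SMA mice from 11.9 to 17.5 FPKM (n = 3). The targeted allele of this line removes only a short part of the gene, and mice of both genotypes carry the human transgene, which is closely similar in sequence. The part of either in the Smn1 values was not tested.

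Cholinergic neurons acetylate choline with choline acetyltransferase, load the product into vesicles with a dedicated transporter, and recover choline from the synaptic cleft after acetylcholinesterase has split the transmitter. In the brain these neurons lie in the basal forebrain, the striatum, brainstem nuclei and the cranial motor nuclei. Basal forebrain cholinergic neurons carry the p75 neurotrophin receptor Ngfr, and the LIM homeodomain factors Isl1 and Lhx8 act in setting up the forebrain cholinergic fate. Only Chat, Slc18a3 and Slc5a7 are close to restricted to cholinergic cells. Ache, Isl1 and Ngfr are also made by other cells.

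Chat and Slc18a3 share a locus. On GRCm38, Chat spans chr14:32408203-32465989 on the minus strand, and Slc18a3, with a single exon of 2413 bases, lies at chr14:32462438-32464850 inside intron 1 of the longest Chat transcript, on the same strand and with 0 shared exonic bases. The table gives both rows the same merged locus, together with the antisense gene Gm2990. The outermost annotated starts are 1139 bases apart. Other Chat transcripts start past Slc18a3, at 32462042, 32460940 and 32460911, and their upstream sequence is not shown. The stretches just before the outermost start of each gene are shown here. These 2 rows come from a merged locus, and their levels can be compared within a library. The first lies before the annotated Chat gene at chr14:32465990-32466159, and the second is inside the Chat intron at chr14:32464851-32465100 and overlaps an exon of Gm2990 on the other strand. Both are printed 5′ to 3′ on the minus strand from RefSeq (GRCm38.p6), and capitals mark TGACG or its reverse complement CGTCA, the core of the cAMP response element.
Chat: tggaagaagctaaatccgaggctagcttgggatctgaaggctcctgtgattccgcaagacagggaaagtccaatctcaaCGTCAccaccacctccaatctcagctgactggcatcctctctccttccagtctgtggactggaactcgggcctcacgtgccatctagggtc
Slc18a3: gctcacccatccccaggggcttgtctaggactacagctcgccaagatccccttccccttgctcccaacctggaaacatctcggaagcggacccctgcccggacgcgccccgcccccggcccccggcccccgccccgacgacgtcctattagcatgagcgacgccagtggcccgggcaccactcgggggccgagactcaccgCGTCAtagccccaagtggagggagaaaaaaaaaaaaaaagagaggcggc

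Upstream of Chat 54.7% of the bases were G or C, and upstream of Slc18a3 66.0%. In the 250 bases before the RefSeq start, TGACG on either strand was found in 3 of the 7 genes, once in Chat, once in Slc18a3 and 2 times in Isl1, while 17.8% of all 32851 promoter windows hold it. The LIM homeodomain core TAATTA was in 0 of the 7 windows and in 4.84% of all windows. A match is a run of letters in the window and was not tested as a binding site.

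The other members lie on separate chromosomes. Slc5a7 is at chr17:54273590-54299034 on the minus strand, Ache at chr5:137287519-137294466 on the plus strand, Isl1 at chr13:116298281-116309689, Lhx8 at chr3:154306294-154330659 and Ngfr at chr11:95568818-95587735, the last 3 on the minus strand. Ache shares 98 of its 4623 exonic bases with the antisense gene Gm42456. Library preparation kept strand, while the methods give default program settings and name no strand option, so reads of a gene and an overlapping antisense gene may not have been told apart.

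Levels in whole brain were far lower for every other member than for Ache. Over the 20 libraries Ache had a mean of 37.1 FPKM (29.8 to 45.6), above 87.1% of the 22469 tested genes. Isl1 followed with 4.83 FPKM (2.38 to 7.61), Ngfr with 3.22 FPKM (1.74 to 5.18), Slc5a7 with 1.67 FPKM (1.30 to 2.17), Lhx8 with 1.59 FPKM (0.81 to 2.64), Slc18a3 with 1.19 FPKM (0.79 to 1.62) and Chat with 0.408 FPKM (0.29 to 0.62). Isl1 and Ngfr lay near the middle of the tested genes, above 51.5% and 45.7% of them, and the rest lower, down to 20.9% for Chat. All 7 passed the filter of a mean of 0.1 FPKM, and none was listed at 0 in any library. Ache lay above Isl1 in 20 of 20 libraries, Isl1 above Ngfr in 19, Ngfr above Slc5a7 in 20 and Slc18a3 above Chat in 20. Slc5a7 lay above Lhx8 in 12 of 20 libraries, 7 of 8 at day 5 and 5 of 12 at day 7. Lhx8 lay above Slc18a3 in 16 of 20, 5 of 8 at day 5 and 11 of 12 at day 7, with equal values in the other. The mean of Slc18a3 was 2.91 times that of Chat, and the ratio ranged from 2.08 to 5.06 between libraries. FPKM are per length, which allows levels of different genes to be set side by side. The number of reads behind a value is unknown, and in whole tissue fewer cholinergic cells and less RNA per cell cannot be told apart.

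**Figure D1:**
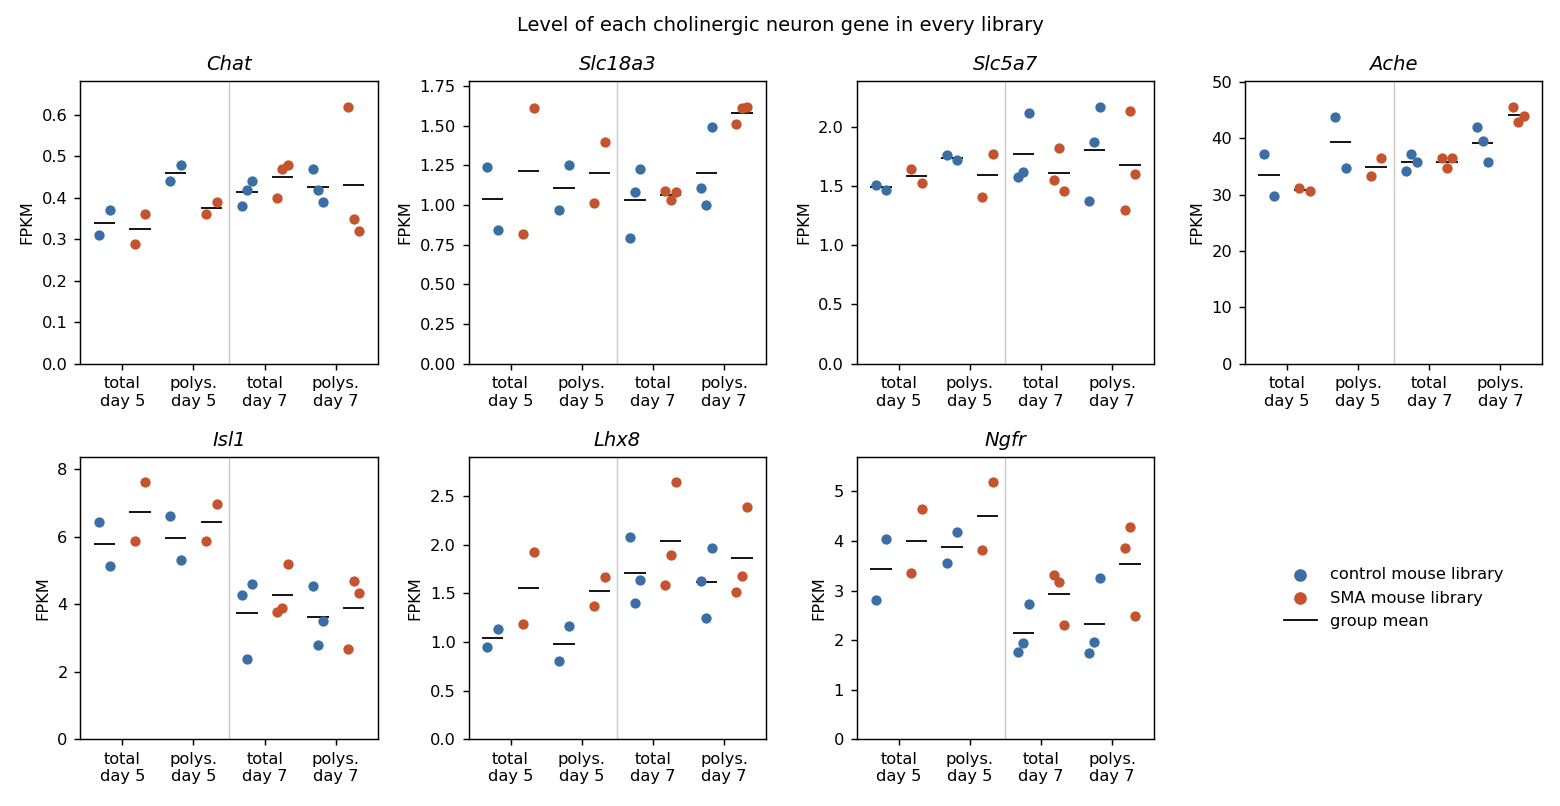
Level of each gene in FPKM on a linear axis from 0, with a point per library, blue for controls and orange for SMA mice, and a black line for the group mean (2 libraries per group at day 5, 3 at day 7). Isl1 and Ngfr are lower at day 7 than at day 5, Lhx8 is higher, and control and SMA points overlap in most groups.

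The first comparison asked whether these genes differ between SMA and control brains in the transcriptome (total RNA) or the translatome (polysomal RNA). A gene was called at an unadjusted limma p under 0.05, the threshold of the study, and the p-values printed are those after Benjamini-Hochberg adjustment over all tested genes, so a called gene can have a high adjusted p. Among the 7 genes 0 were called in total RNA at day 5, where 8.36% of all tested genes were, and 0 in polysomal RNA at day 5, against 13.2%. At day 7, 0 were called in total RNA, against 8.84%, and 1 in polysomal RNA, Ache, against 10.5%. Over both stages with stage in the model, 0 of 7 were called in total RNA (11.9% of all genes) and 0 of 7 in polysomal RNA (14.1%). None of the 7 passed the adjusted threshold in any of these 6 comparisons. The median difference of the members over both stages was 0.10 on the log2 scale in total RNA and 0.10 in polysomal RNA, beside 0.02 and 0.00 over all tested genes. Fold changes come from log2(FPKM + 0.1) and understate changes of genes as low as Chat.

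**Figure D2:**
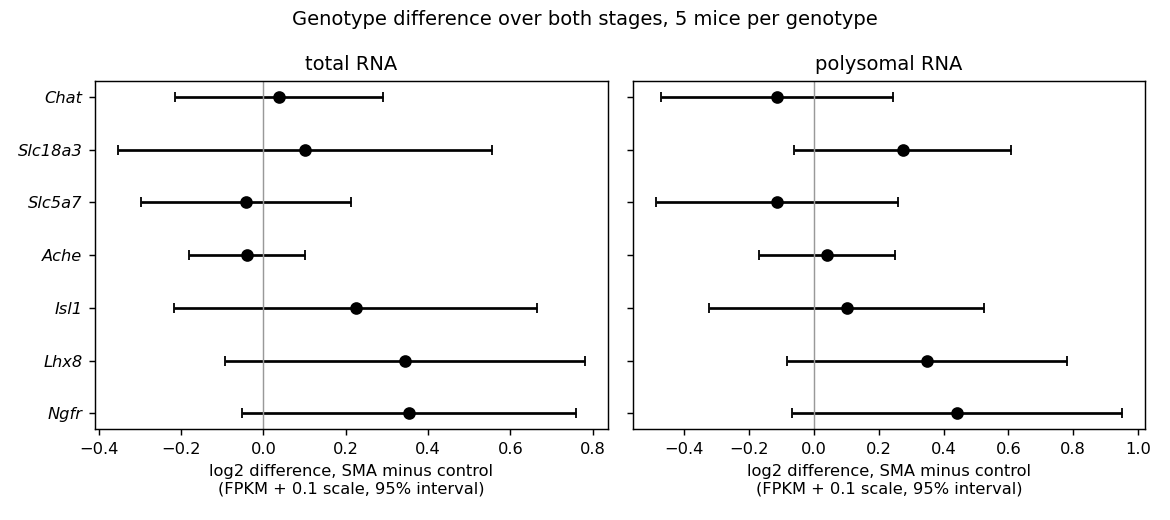
Difference between SMA and control mice over both stages for each gene, in log2 of FPKM + 0.1 with 95% intervals from limma, in total RNA (left) and polysomal RNA (right), 5 mice per genotype. Each of the 14 intervals includes 0. The widest belong to Ngfr, Lhx8 and Isl1, and in total RNA also to Slc18a3.

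Chat, which makes acetylcholine, was the lowest member. In total RNA it was at 0.31 and 0.37 FPKM in day-5 controls and 0.29 and 0.36 FPKM in day-5 SMA mice, and at 0.38, 0.42 and 0.44 FPKM in day-7 controls and 0.40, 0.47 and 0.48 FPKM in day-7 SMA mice. The genotypes overlapped at both stages. Over both stages the difference was 0.04 on the log2 scale (SE 0.11, limma adjusted p = 0.924), with a 95% interval from 0.862 to 1.22 in fold.

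In polysomal RNA Chat stood at 0.44 and 0.48 FPKM in day-5 controls and at 0.36 and 0.39 FPKM in day-5 SMA mice, which do not overlap. Values of 22.1% of all tested genes were lower without overlap in that comparison of 2 against 2 libraries, and the difference of -0.24 was not called (limma adjusted p = 0.498). At day 7 the controls had 0.47, 0.42 and 0.39 FPKM and the SMA mice 0.62, 0.35 and 0.32 FPKM, so that SMA replicate 1 held the highest Chat value of all libraries while the other 2 SMA libraries lay below every control. Without that mouse, Chat over both stages was lower in SMA polysomal RNA by a log2 difference of -0.26 and called (limma adjusted p = 0.273), against -0.11 (adjusted p = 0.793) with it. The genotype result for Chat in polysomal RNA therefore depends on a single library.

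Slc18a3 encodes the vesicular acetylcholine transporter. Total RNA held 1.24 and 0.84 FPKM in day-5 controls, 0.82 and 1.61 FPKM in day-5 SMA mice, 0.79, 1.08 and 1.23 FPKM in day-7 controls and 1.09, 1.03 and 1.08 FPKM in day-7 SMA mice. Again the genotypes overlapped. Polysomal RNA held 0.97 and 1.25 FPKM in day-5 controls and 1.01 and 1.40 FPKM in day-5 SMA mice. At day 7 the polysomal controls were at 1.11, 1.00 and 1.49 FPKM and the SMA mice at 1.51, 1.61 and 1.62 FPKM, the SMA values all higher, but only just above control replicate 3. The day-7 difference was 0.39 (SE 0.17, limma adjusted p = 0.519), or 1.31-fold with an interval from 0.965 to 1.77, and was not called. With genes under a mean of 1 FPKM left out, the same difference was called (adjusted p = 0.459). Non-overlapping higher values were found in 6.94% of all tested genes, and 2 of the 7 members, Slc18a3 and Ache, were among them. Pearson's r of the log2 values of Chat and Slc18a3 was 0.07 over the 20 libraries, which share mice and stages. At levels this low, with unknown read numbers, a weak r does not show that the 2 genes vary separately.

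Slc5a7, the high-affinity choline transporter, was the steadiest of the low members, with a ratio of 1.67 between its highest and lowest library. Its total RNA values were 1.51 and 1.47 FPKM in day-5 controls, 1.64 and 1.53 FPKM in day-5 SMA mice, 1.58, 1.62 and 2.12 FPKM in day-7 controls and 1.55, 1.82 and 1.46 FPKM in day-7 SMA mice. Polysomal values ran from 1.37 to 2.17 FPKM in the 5 controls and from 1.30 to 2.13 FPKM in the 5 SMA mice. Over both stages the difference was -0.04 (SE 0.11, limma adjusted p = 0.914) in total and -0.11 (SE 0.16, adjusted p = 0.802) in polysomal RNA, and the day-5 total values, although higher in SMA without overlap as for 26% of all genes, were not called (adjusted p = 0.857).

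Ache, the enzyme that ends the signal by splitting acetylcholine, is made by many neurons. In total RNA the day-5 controls had 37.2 and 29.8 FPKM and the SMA mice 31.2 and 30.6 FPKM, while the day-7 controls had 34.2, 37.2 and 35.8 FPKM and the SMA mice 36.5, 34.7 and 36.4 FPKM. The difference over both stages was -0.04 on the log2 scale (SE 0.06, limma adjusted p = 0.829), an interval from 0.882 to 1.07 in fold. Polysomal RNA at day 5 gave 43.8 and 34.8 FPKM in controls and 33.2 and 36.5 FPKM in SMA mice. At day 7 the polysomal controls were at 42.1, 39.6 and 35.9 FPKM and the SMA mice at 45.6, 42.9 and 44.0 FPKM, every SMA value above every control value. Ache was higher in SMA polysomal RNA at day 7 by 0.18 on the log2 scale (SE 0.07), 1.13-fold with an interval from 1.00 to 1.27 (limma adjusted p = 0.468). This call was made in 7 of the 14 alternative analyses, and leaving out any of the day-7 mice except control replicate 1 removed it. The genotype effect on polysomal Ache differed between stages by 0.34 (limma adjusted p = 0.394), and the change in translation efficiency at day 7, the polysomal over total ratio in SMA against control, was 0.17 (limma adjusted p = 1), neither of them called. Leaving out a mouse gave 0.17 to 0.50 for the difference between stages and 0.11 to 0.25 for translation efficiency. They were called in 6 of 20 and 1 of 14 alternative analyses.

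Isl1 and Lhx8 encode the LIM homeodomain factors. Isl1 is also active in striatal and other non-cholinergic neurons of the young brain. In total RNA Isl1 was at 6.43 and 5.13 FPKM in day-5 controls, 5.88 and 7.61 FPKM in day-5 SMA mice, 4.28, 2.38 and 4.60 FPKM in day-7 controls and 3.78, 3.90 and 5.19 FPKM in day-7 SMA mice. The genotypes overlapped at both stages, and the difference over both was 0.22 (SE 0.19, limma adjusted p = 0.687) in total and 0.10 (SE 0.18, adjusted p = 0.853) in polysomal RNA. Without day-7 control 2, the lowest of the total RNA libraries, they were 0.06 and 0.01.

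Lhx8 was at 0.95 and 1.13 FPKM in total RNA of day-5 controls and 1.19 and 1.93 FPKM in that of day-5 SMA mice, and at 0.81 and 1.16 FPKM against 1.37 and 1.67 FPKM in the polysomal libraries of the same stage. The day-5 SMA values were all higher in both fractions, as were those of 26% and 25.6% of all tested genes. At day 7 total RNA gave 2.08, 1.40 and 1.64 FPKM in controls and 1.59, 1.89 and 2.64 FPKM in SMA mice. The polysomal libraries of that stage had 1.63, 1.25 and 1.97 FPKM in controls against 1.51, 1.68 and 2.39 FPKM in SMA mice, so all overlapped. Over both stages the differences were 0.34 (SE 0.19, limma adjusted p = 0.529) in total RNA and 0.35 (SE 0.19, limma adjusted p = 0.445) in polysomal RNA, neither called.

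Ngfr, the p75 receptor for neurotrophins, had the largest genotype differences over both stages among the 7 genes in both fractions, and also the largest SD within groups, 0.35 on the log2 scale beside 0.34 for Isl1 and 0.11 for Ache. In total RNA it was at 2.81 and 4.04 FPKM in day-5 controls, 3.35 and 4.64 FPKM in day-5 SMA mice, 1.76, 1.94 and 2.73 FPKM in day-7 controls and 3.32, 3.17 and 2.31 FPKM in day-7 SMA mice. Polysomal RNA gave 3.56 and 4.19 FPKM in day-5 controls, 3.82 and 5.18 FPKM in day-5 SMA mice, 1.74, 1.96 and 3.26 FPKM in day-7 controls and 3.85, 4.29 and 2.48 FPKM in day-7 SMA mice. At day 7 SMA replicates 1 and 2 lay above all controls in both fractions, and SMA replicate 3 lay below control replicate 3. Over both stages the difference was 0.35 (SE 0.18, limma adjusted p = 0.485) in total RNA and 0.44 (SE 0.22, limma adjusted p = 0.412) in polysomal RNA, a fold of 1.28 and 1.36, and was not called.

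Ngfr values were set beside 2 other properties of the mice. The summed level of 11 caudal Hox genes, which mark the lower hindbrain and spinal cord and are nearly silent in front of it, ranged from 0.03 to 11.5 FPKM between libraries. The total and the polysomal library of a mouse number had like sums, for example 8.67 and 10.8 FPKM in day-5 control 2 against 1.43 and 0.73 FPKM in day-5 control 1. The mouse with the highest Hox sum of its group also had the highest Ngfr value in 7 of 8 groups, while for the other members this was so in 1 to 5 groups. These groups hold only 2 or 3 mice, and each mouse number counts once per fraction. The share of all genes for which this holds was not counted. Over both stages 0 of the 11 Hox genes were called between the genotypes in either fraction, with medians of 0.38 and 0.40. Of all tested genes 11.9% were called in total and 14.1% in polysomal RNA. Hoxa5 was the most abundant Hox gene, at a mean of 1.06 FPKM. With the Hox sum as a term in the model, chosen after seeing the data, the genotype difference of Ngfr was 0.22 (limma adjusted p = 0.471) in total and 0.31 (adjusted p = 0.399) in polysomal RNA, not called. Lhx8 then had the larger difference, 0.36 in total and 0.33 in polysomal RNA, also not called.

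The second property was sex, taken from Xist and from genes on the Y, which matched between the total and polysomal library in 10 of 10 mouse numbers. Day-5 controls were 2 males, day-5 SMA mice 1 male and 1 female, day-7 controls 1 male and 2 females, and day-7 SMA mice 2 males and 1 female. In all 6 groups with both sexes, every female had less Ngfr than every male, as was the case for 1.18% of all tested genes. This also held for the Hox sum, which differed among males as well. In total RNA the day-5 control males had Hox sums of 1.43 and 8.67 FPKM beside Ngfr at 2.81 and 4.04 FPKM, and the day-7 SMA males had Hox sums of 1.71 and 8.55 FPKM beside Ngfr at 3.32 and 3.17 FPKM. With a term for sex, again chosen after seeing the data, the genotype difference of Ngfr was again 0.35 and 0.44, with a smaller SE of 0.11 and 0.09, and was called in both fractions (limma adjusted p = 0.219 and adjusted p = 0.10). Among the other members, females lay below males in 1 to 4 of the 6 groups. The part of sex, or of the tissue that carries the Hox transcripts, in the Ngfr difference was not tested beyond these models.

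**Figure D3:**
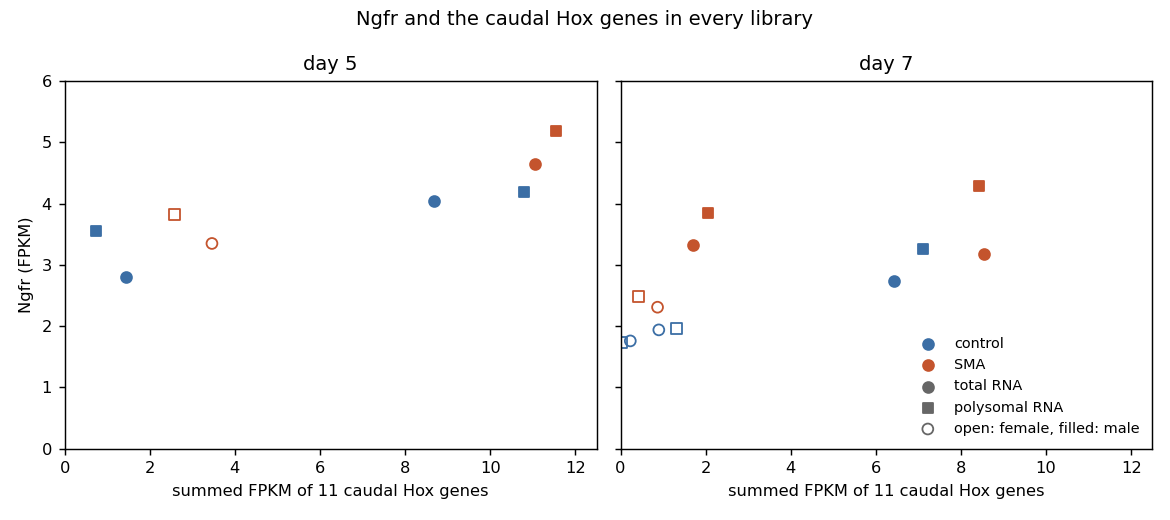
Ngfr in FPKM against the summed FPKM of 11 caudal Hox genes for each of the 20 libraries, at day 5 (left) and day 7 (right), with blue for controls, orange for SMA mice, circles for total RNA, squares for polysomal RNA and open symbols for females. In all 6 groups with both sexes the open symbols lie below the filled ones on both axes.

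Schwann and neural crest cells also make Ngfr. The 7 genes of that marker list summed to 11.9 and 23.6 FPKM in total RNA of day-5 controls, 11.8 and 53.3 FPKM in day-5 SMA mice, 18.5, 18.1 and 19.3 FPKM in day-7 controls and 17.6, 18.9 and 16.7 FPKM in day-7 SMA mice. Polysomal sums were 9.19 and 25.5 FPKM in day-5 controls, 10.99 and 59.8 FPKM in day-5 SMA mice, 18.6, 16.5 and 17.8 FPKM in day-7 controls and 19.5, 18.9 and 17.1 FPKM in day-7 SMA mice. Day-5 SMA mouse 2, which had the highest Ngfr value of all mice, stood apart in this list, whereas at day 7 the sums hardly differed between the genotypes. Pmp22, at a mean of 10.6 FPKM, was the most abundant gene of the list, Foxd3 was under the filter and at 0 in 1 library, and of the 6 tested genes Cdh19 was higher in SMA mice in both fractions over both stages (2.63-fold in total RNA, limma adjusted p = 0.0774, and 3.28-fold in polysomal RNA, limma adjusted p = 0.0439) and Egr2 lower in total RNA (adjusted p = 0.368). Cdh19 was low, at a mean of 0.441 FPKM. Over all tested genes 6.43% were higher and 5.48% lower in total RNA, and 7.07% higher and 7.02% lower in polysomal RNA. The part of Schwann and neural crest cells in the Ngfr values was not tested.

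The next comparison set polysomal against total RNA, with genotype in the model, to describe how far each transcript was carried on polysomes. At day 5, 0 of 7 genes were called, while 34.4% of all tested genes were. With mouse number as a block Ache was called at day 5 (0.20, limma adjusted p = 0.0748). At day 7, 2 of 7 were higher in polysomal RNA, Ache and Slc18a3, and 0 lower, against 37.4% of all genes called in either direction. Ache was 0.21 higher (SE 0.05), 1.16-fold (limma adjusted p = 0.0076), and was called in 14 of 14 alternative analyses. Slc18a3 was 0.36 higher (SE 0.13), 1.29-fold (limma adjusted p = 0.0587), and was called in 11 of 14, with the call lost when any SMA mouse was left out.

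Within mouse numbers the same ratio can be seen for each gene. Ache was above its total RNA level in polysomal RNA in 10 of 10 mouse numbers, with a median log2 ratio of 0.24 (0.00 to 0.32). Ngfr was above in 9 of 10 (median 0.17), Slc18a3 in 7 (median 0.35) and Slc5a7 in 7 (median 0.16). Chat was above in 6 (median 0.16), Isl1 in 6 (median 0.02) and Lhx8 in 3 (median -0.15). The share of all tested genes with such counts was not computed. By the fit at day 7, 18.6% of all tested genes were called higher in polysomal RNA. The spread was narrowest for Ache and widest for Chat, from -0.47 to 0.53. Total and polysomal libraries were scaled separately. At day 5 the median difference over all tested genes was -0.06. The median log2 level of the polysomal libraries was 0.17 lower than that of the total libraries. With libraries set to equal medians Ache, Chat and Slc5a7 were called at day 5, at differences of 0.37, 0.42 and 0.27, relative to that shift.

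**Figure D4:**
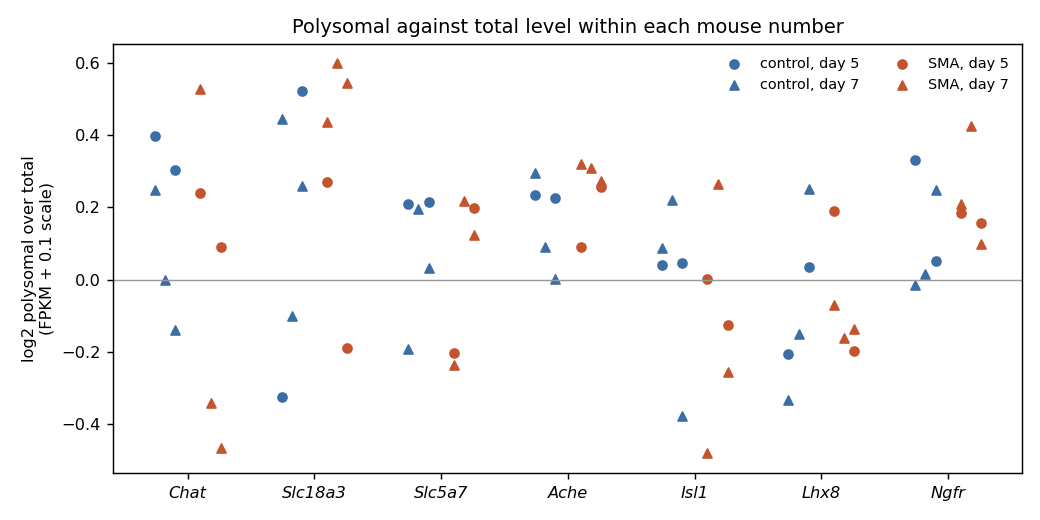
Log2 ratio of polysomal to total level, on the FPKM + 0.1 scale, for each gene in each of 10 mouse numbers, with circles for day 5, triangles for day 7, blue for controls and orange for SMA mice. All 10 Ache points lie above 0, those of Chat run from -0.47 to 0.53, and 7 of the 10 Lhx8 points lie below 0.

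Translation efficiency itself, the polysomal over total ratio compared between genotypes, was called for 0 of the 7 genes at day 5 (3% of all genes) and for 0 at day 7 (2.97%). By the difference of the genotype effects between stages, 0 of 7 were called in total RNA (8.88% of all genes) and 0 in polysomal RNA (13.3%).

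Between day 7 and day 5, 5 of the 7 genes were called in total RNA, where 39.5% of all genes were called, 3 higher (Chat, Ache and Lhx8, where 17.3% of all genes were higher) and 2 lower (Isl1 and Ngfr, where 22.2% were lower). In polysomal RNA 3 of 7 were called, near the share of all genes, 45.2%, with Lhx8 higher (20.4% of all genes) and Isl1 and Ngfr lower (24.8%). Stage is also a separate set of mice, so age and any batch cannot be told apart.

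Isl1 fell most. Its total RNA ranged from 5.13 to 7.61 FPKM in the 4 day-5 mice and from 2.38 to 5.19 FPKM in the 6 day-7 mice, with 1 day-7 library, SMA replicate 3, above the lowest day-5 library. Its polysomal values were 6.61 and 5.30 FPKM in day-5 controls, 5.89 and 6.97 FPKM in day-5 SMA mice, 4.55, 2.79 and 3.52 FPKM in day-7 controls and 2.68, 4.70 and 4.33 FPKM in day-7 SMA mice, and the stages did not overlap, as for 12.2% of all genes lower at day 7. The level at day 7 was 0.637 times that at day 5 in total RNA (log2 difference -0.65, SE 0.20, limma adjusted p = 0.0397) and 0.603 times in polysomal RNA (-0.73, SE 0.19, limma adjusted p = 0.0186). Isl1 was the only member past the adjusted threshold between the stages. Over 20 alternative analyses it was called in all 20 in each fraction, and was past the adjusted threshold in 10 in total RNA (limma adjusted p = 0.0256 to 0.112) and in 17 in polysomal RNA (0.0117 to 0.0549).

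Ngfr fell to 0.686 times its day-5 level in total RNA (-0.54, SE 0.18, limma adjusted p = 0.0565) and 0.678 times in polysomal RNA (-0.56, SE 0.23, limma adjusted p = 0.0890). With the Hox sum in the model the differences were -0.32 and -0.36, both called (limma adjusted p = 0.102 in total RNA). With a term for sex they were -0.43 (limma adjusted p = 0.0252) and -0.40 (limma adjusted p = 0.0152), past the adjusted threshold in both fractions, as in 4 of the 20 alternative analyses in total RNA and 2 of 20 in polysomal RNA. Of 20 alternative analyses 18 called Ngfr in total RNA and 13 in polysomal RNA. The values of the stages overlapped, since day-7 SMA replicates 1 and 2 were above day-5 control 1.

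Lhx8 rose 1.43-fold in total RNA (0.51, SE 0.20, limma adjusted p = 0.0851) and 1.37-fold in polysomal RNA (0.46, SE 0.19, limma adjusted p = 0.0992). Day-5 controls were lowest, and day-5 SMA mouse 2 reached the level of day 7. Chat rose 1.23-fold in total RNA (0.30, SE 0.11, limma adjusted p = 0.0829), with every day-7 value above every day-5 value, as for 10.1% of all genes. Ache rose 1.12-fold in total RNA (0.16, SE 0.06, limma adjusted p = 0.0963). The calls were made in 11 of 20 alternative analyses for Lhx8 in each fraction, 13 of 19 for Chat and 11 of 20 for Ache.

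The wider cholinergic pathway was read from 6 lists over both stages. Of 10 genes that handle choline and acetylcholine outside the 7, such as the butyrylcholinesterase gene Bche and the ATP citrate lyase gene Acly, 0 were called in either fraction, where 11.9% of all genes were called in total and 14.1% in polysomal RNA, and their median differences were 0.07 and 0.03. With replicate number within a stage as a block, which groups different mice, 1 of them was called in polysomal RNA. Acly was the most abundant, at 57.6 FPKM, with a difference of -0.02 in total RNA (limma adjusted p = 0.955).

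Of 17 tested receptor genes 2 were called in total RNA, beside 11.9% of all genes, and 3 in polysomal RNA, beside 14.1%. Of the 5 muscarinic receptors, Chrm4, the inhibitory type of the striatum, was lower in SMA total RNA (-0.36, 0.778-fold, limma adjusted p = 0.246) and Chrm5, a type found in dopamine neurons, was higher in polysomal RNA (0.34, 1.27-fold, limma adjusted p = 0.244). The medians of that list were 0.04 and 0.05, and its most abundant gene, Chrm1, at 11.6 FPKM, differed by -0.03 in total RNA. Of 16 nicotinic receptor subunits 12 were tested. The muscle-type subunit Chrna1 was lower in total RNA (-0.37, limma adjusted p = 0.322), and Chrnb1, also of muscle type, and the autonomic and habenular subunit Chrnb4 were higher in polysomal RNA (0.39, limma adjusted p = 0.175, and 0.47, limma adjusted p = 0.334). The Chrnb4 call was made in 9 of 19 alternative analyses, and was lost at a pseudocount of 0.01 FPKM, with the Hox or the sex term and in 7 of 10 analyses that left out a mouse (0.31 to 0.62), and the Chrnb1 call was lost with 1 model over all libraries. Chrna1, Chrnb1 and Chrnb4 were low, at means of 0.838, 0.37 and 0.319 FPKM. With a filter at a mean of 1 FPKM, 0 nicotinic subunits were called in either fraction. The list medians were 0.00 and 0.11, and Chrnb2, the most abundant subunit at 15.4 FPKM, differed by 0.02 and 0.05.

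Neurotrophin signalling, through which Ngfr and its partners act, had 3 of 9 tested genes higher in total RNA and 2 in polysomal RNA, with 0 lower, where 6.43% and 7.07% of all genes were higher. These were the BDNF receptor Ntrk2 (0.20 in total RNA, limma adjusted p = 0.192, and 0.14 in polysomal RNA, adjusted p = 0.265), the NT-3 receptor Ntrk3 (0.24, limma adjusted p = 0.257, and 0.20, adjusted p = 0.304) and the sortilin family member Sorcs2 (0.30 in total RNA, limma adjusted p = 0.413). The Sorcs2 call was made in 9 of 20 alternative analyses, and was lost with the replicate block, with no filter, with the Hox term and in 8 of 10 analyses that left out a mouse (0.18 to 0.35). Ntrk3 was not called in polysomal RNA in 7 of 10 such analyses (0.15 to 0.26). Differences rose with transcript length at day 5, with a Spearman's rho of 0.15 across 22280 genes in total RNA, and Ntrk3 was not called once that trend was taken out (0.08 in both fractions), nor was Ntrk2 in polysomal RNA. The list medians were 0.03 and 0.04, and Maged1, at 169 FPKM the most abundant, differed by 0.01 in both fractions.

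Of 7 factors of the forebrain cholinergic lineage 6 were tested, and Nkx2-1, which specifies the ventral forebrain domain where these neurons arise, was higher in polysomal RNA (0.49, 1.41-fold, limma adjusted p = 0.249) and differed by 0.46 in total RNA (adjusted p = 0.427). Nkx2-1 was low, at a mean of 0.54 FPKM. The list medians were 0.32 and 0.23, and Zic4, the most abundant at 16.1 FPKM, differed by 0.40 (adjusted p = 0.483) and 0.07. Of 10 motor neuron genes 5 passed the filter and 0 were called, with medians of -0.12 and 0.05. Among all tested genes 11.9% were called in total and 14.1% in polysomal RNA. With the Hox term 1 of the 5 was called in each fraction. Mnx1, a factor of spinal motor neurons, had a mean of 0.0025 FPKM and was at 0 in 18 of 20 libraries, Isl2 was at 0.078 FPKM and Phox2a at 0.05 FPKM, and the list summed to 5.92 to 16.4 FPKM over the libraries. Calca, the most abundant of the list at 4.57 FPKM, differed by -0.26 (adjusted p = 0.724) and -0.22 (adjusted p = 0.486).

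The genes whose log2 levels followed each member most closely over the 20 libraries, among those averaging 1 FPKM or more, were named by Pearson's r, which also carries the shared mice, stages and scaling. For Chat these were Hspb1 (0.80), Ctla2b (0.70) and 1010001B22Rik (0.69), and for Slc18a3 B9d2 (0.75), the GDNF receptor Ret (0.72) and Sars2 (0.72). Slc5a7 had the weakest likeness, with Ldlrad3 (0.64), Khdrbs1 (0.63) and 4930523C07Rik (0.61). Ache was followed by Clptm1 (0.89), the secretory neuropeptide precursor gene Vgf (0.88) and Slc41a3 (0.88), Isl1 by Amz2 (0.91), Clk3 (0.91) and Ighmbp2 (0.88), Lhx8 by Ccl28 (0.88), Gm7120 (0.83) and Tbc1d8 (0.83), and Ngfr by Pdlim3 (0.93), Stk32a (0.91) and Kirrel2 (0.91). Chat itself, under 1 FPKM, was not among the genes that could be named, and none of the other 6 members was among the 3 closest genes of another member.

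Markers of other cells were set beside these values. The striatal projection neuron list had 8 tested genes, of which 7 are reported here. Of these 7, 1 was higher in total RNA, Rgs9 (0.23, limma adjusted p = 0.238), and 3 in polysomal RNA, Drd2 (0.48, limma adjusted p = 0.122), Ppp1r1b (0.45, adjusted p = 0.299) and Penk (0.27, adjusted p = 0.320), where 6.43% and 7.07% of all genes were higher. Drd1, Tac1 and Adora2a were called in neither fraction. Of 3 GABAergic, 5 catecholaminergic and 4 tested pituitary genes 0 were called in either fraction, beside 11.9% of all genes in total and 14.1% in polysomal RNA. Among 3 glutamatergic genes Slc17a8 was higher in total RNA, and among 6 pan-neuronal genes Map2 was higher in total RNA. Tubb3 of the pan-neuronal list was called in polysomal RNA but is listed at 0 in 2 of 20 libraries while other neuronal genes are abundant there, so no fold is given. Meningeal fibroblast genes had 5 of 6 lower in SMA mice in both fractions (Col1a1, Col1a2, Dcn, Lum and Ogn) and 1 higher (Slc6a13), where 5.48% of all genes were lower in total and 7.02% in polysomal RNA. Lum, at 0.486-fold in total RNA (adjusted p = 0.00795) and 0.533-fold in polysomal RNA (adjusted p = 0.0169), was past the adjusted limma threshold in both. Erythroid genes had 2 of 6 lower in both fractions, Hbb-bt and Hba-a2, which share reads with near-identical globin copies. None of the marker lists was tested as a source of the cholinergic values.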

How the data were processed

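The authors sequenced stranded total RNA libraries, and the submitters' processing notes name TopHat2 2.0.14, Cufflinks 2.2.1 and GRCm38.p4. The deposited values are FPKM computed by the authors, normalized to each library's mapped fragments and given to 2 decimals, without counts, so depth and counting error behind a value are unknown. A sequenced sample is 1 mouse number and fraction. Nothing in the labels says that the total and polysomal library of a number come from the same brain, although their sex matched in 10 of 10 numbers. The main fits that hold both fractions took these 2 libraries as independent. If the 2 share a brain, p-values of those fits do not measure the spread between mice. All other p-values measure the spread between these samples.

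Values were analysed as log2(FPKM + 0.1) for 22469 of 45700 genes, those averaging 0.1 FPKM or more, with limma 3.58.1 (lmFit, and eBayes with a trend) in R 4.3.3, in 14 comparisons. A gene was called at an unadjusted p under 0.05, and p-values were adjusted by Benjamini-Hochberg over all tested genes. The fits were tested on simulated data. Translation efficiency was the interaction of genotype and fraction. Coordinates and transcript lengths came from GENCODE M21 (GRCm38), promoter windows from RefSeq (7 of 7 members matched). Alternatives were other pseudocounts, filters, library scalings, a length correction, a shared model, a replicate block and leaving out each mouse, and, added later, terms for the Hox sum and sex.

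The members and lists were chosen with earlier results of these data known. In every comparison all 7 members are named, from the pathway lists the genes called over both stages and the most abundant gene, and for likeness the 3 genes with the highest r. Called genes of the marker lists and Bche were named after their values were seen, as were Smn1, Mnx1, Isl2, Phox2a and Foxd3. A gene of the striatal list is not reported here.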

Additional observations from a re-analysis of the deposited data

Results flagged for a closer look

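From the cholinergic pathway lists 15 genes were taken, those called over both stages and the most abundant of each list. Of these, 4 had genotype effects in total RNA that differed between day 7 and day 5 by an interaction test in limma. Each had a lower SMA against control difference at day 7. Ntrk2 differed by -0.23 on the log2 scale (adjusted p = 0.547), Ntrk3 by -0.29 (adjusted p = 0.552), Sorcs2 by -0.55 (adjusted p = 0.547) and the nicotinic subunit gene Chrnb2 by -0.20 (adjusted p = 0.547). For Chrnb2 the direction turned, from means of 13.97 FPKM in controls and 15.48 FPKM in SMA mice at day 5 to 15.3 and 14.7 FPKM at day 7. None passed the adjusted threshold. Over the 6 lists, 9 of 47 tested genes were called in this comparison, 1 higher and 8 lower, beside 8.88% of all genes. With the trend of each library on transcript length taken out, the value was 0.00 for Ntrk2, 0.07 for Ntrk3 and -0.03 for Chrnb2, none of them called, and Sorcs2 was called at -0.40 (adjusted p = 0.714). With the replicate block Ntrk2 alone of the 4 was called, with a term for sex Chrnb2 alone, and with libraries at equal medians Sorcs2 alone, and with the Hox term Ntrk3 was not called. Over all 20 alternative analyses Ntrk2 and Sorcs2 were each called in 16, Chrnb2 in 17 and Ntrk3 in 7. Without day-5 SMA mouse 1 the value was -0.15 for Ntrk3 and -0.34 for Sorcs2, and without day-5 SMA mouse 2 it was -0.42 and -0.76. The part of transcript length was not tested further.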

How the results depend on the processing

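Of the 14 counts of members called, those for SMA against control at day 5 in each fraction and for translation efficiency at day 5 were 0 under each alternative run. In polysomal RNA at day 7 the count was 1, but 2 with a filter at a mean of 1 FPKM, where Chat is no longer tested, and 0 with no filter, and with 1 model over all libraries the called member was Ngfr, not Ache. The interaction of genotype and stage in polysomal RNA gave 1 member, Ache, in place of 0 with libraries at equal medians, with the length correction, with 1 model over all libraries and with the Hox term. With a term for sex the count over both stages was 1, Ngfr, in each fraction. Polysomal against total at day 5 gave 3 with equal medians, and 1, Ache, with the length correction, with 1 model and with the replicate block. Day 7 against day 5 in total RNA gave 3 with the Hox term. The only reversals apart from leaving out mice were Ntrk3 between stages (0.0667 with the length correction) and Chat over both stages in total RNA (-0.001 with the Hox term). The cause of these changes was not tested.

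The replicate block was an alternative because numbers are not stated to pair samples: deviations of total and polysomal libraries of a number correlated by -0.01 to 0.11. For polysomal against total and for translation efficiency the block was the mouse number. In the genotype and stage comparisons it was the replicate number, within a stage for genotype. There it grouped different mice and is no pairing within a mouse. Under the block the stage comparison called 2 members in total RNA (Isl1 and Ngfr) and 1 in polysomal RNA (Isl1), and all genes called for translation efficiency at day 7 rose from 667 to 1104. Beside these and the day-5 count of polysomal against total above, the block moved no count of members by over 1.5 times.

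Leaving out each mouse in turn gave counts of 0 to 1 (late total), 0 to 2 (late polysomal), 0 to 1 (both stages, total), 0 to 2 (both stages, polysomal), 0 to 1 (interaction with stage, each fraction), 0 to 1 (translation efficiency, late), 0 to 1 and 1 to 2 (polysomal against total, early and late), 2 to 4 (day 7 against day 5, total) and 1 to 3 (polysomal). The direction over both stages changed in total RNA for Slc18a3 (-0.0458 to 0.229), Slc5a7 (-0.0778 to 0.0394, and 0.0039 without day-7 SMA 3) and Ache (-0.0788 to 0.02), and in polysomal RNA for Ache (-0.0125 to 0.122). Ngfr was called over both stages in total RNA without day-5 control 2 (0.45), day-5 SMA 1 (0.44) or day-7 control 3 (0.44), and in polysomal RNA without day-7 control 3 (0.56) or day-7 SMA 3 (0.55). Slc18a3 was called in polysomal RNA without day-5 control 2 (0.35) or day-5 SMA 1 (0.37), and Lhx8 without day-7 control 3 (0.45). Isl1 over both stages ranged from 0.0646 to 0.316 in total and 0.0103 to 0.235 in polysomal RNA. Chat ranged from 0.0041 to 0.0887 in total and -0.257 to -0.0452 in polysomal RNA. Slc5a7 ranged from -0.212 to -0.0291 in polysomal RNA, and Lhx8 from 0.217 (without day-5 SMA 2) to 0.443 in total RNA. Over both stages the muscarinic list gave 1 to 3 calls in total RNA (3 without day-7 control 2) and 1 to 2 in polysomal RNA, the nicotinic list 0 to 1 and 1 to 4 (4 without day-5 SMA 1), the neurotrophin list 2 to 3 and 1 to 2, the forebrain lineage list 0 to 2 (2 without day-7 control 3) and 1 to 2, and the acetylcholine handling and motor neuron lists each 0 to 1 in total and 0 in polysomal RNA.

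Counts over all genes moved by over 1.5 times in several comparisons. For SMA against control at day 5, 1878 genes were called in total RNA, 2907 with no filter and 3800 with 1 model, and 879 to 5490 when a mouse was left out. In polysomal RNA the same comparison called 2972, 1902 with the higher filter and 4493 with 1 model, and 1793 to 3951 without a mouse. For translation efficiency 673 at day 5 became 354 with the higher filter and 1531 with no filter (688 to 1578 without a mouse), and 667 at day 7 became 315 with the higher filter (585 to 1088). The interaction in total RNA called 1996 genes, 1252 with sex and 1192 to 5117 without a mouse, and in polysomal RNA 2980, with 1895 to 4581 without a mouse. The reads behind a value are unknown, and 2 mice per genotype limit every day-5 comparison.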
